A study of Mus musculus with 12 samples.

Results

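Max, Myc, Mycn and Mycl were chosen by gene symbol, and all 4 were found among the 24421 genes counted in B220+ splenocytes of mice aged 4 to 5 weeks. RNA of 12 mice was sequenced, 1 library per mouse, in 4 groups of 3. WT mice had intact Max and no transgene, Max KO mice carried a conditional Max knockout, EuMyc mice carried the transgene and intact Max, and EuMyc Max KO mice carried both changes. The transgene places Myc under the enhancer of the immunoglobulin heavy chain gene, which is active in the B lineage, and the cells are premalignant according to the series title. The sources used here do not give the recombinase behind the conditional knockout or the exons it removes, so a whole-gene read count of Max does not show which part of the transcript remained. Nor do counts by symbol separate the transgene from the resident Myc gene. All groups shared the B220+ gate, which admits B cells and also plasmacytoid dendritic cells. The 9 B cell markers examined, Cd79a and Pax5 among them, were detected in every group, with summed levels of 3994 to 4753 CPM (reads per 1000000 assigned reads, after TMM scaling) in EuMyc and 6883 to 11035 CPM over the other groups.

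MYC, MYCN and MYCL are basic helix-loop-helix leucine zipper proteins that bind DNA as dimers with MAX, most often at the E-box CACGTG. MAX also forms dimers with itself and with the MXD proteins, MNT and MGA, which repress many of the same genes. In the B lineage MYC drives growth and division, MYCN is best known from early progenitors, and MYCL is known from dendritic cells.

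On mm10, with GENCODE vM21 models, Max lies on the minus strand of chromosome 12 (76937269 to 76962201, 1958 bp of summed exons) and Myc on the plus strand of chromosome 15 (61985391 to 61990374, 2447 bp). Mycn lies on the minus strand of chromosome 12 (12936093 to 12941914, 2804 bp) and Mycl on the plus strand of chromosome 4 (122995652 to 123002485, 3656 bp). The RefSeq promoter windows of GRCm38.p6 span 300 bases around a start, most of them upstream, and 3 of the 4 genes, Max, Mycn and Mycl, matched 1 window each. They were searched on both strands for the E-box CACGTG, the E2F-type motifs TTTGGCGC and TTTCCCGC and the TATA box TATAAA, none of which overlap one another here. The matches are shown because the Max window differed in them from the Mycn and Mycl windows, and Myc was not searched, with the motif in capitals in 30 bases of the gene's strand.
Max E-box, chr12:76962234-76962263: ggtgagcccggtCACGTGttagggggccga
Mycn first match, chr12:12942001-12942030: agcaaatggctTTTGGCGCgaaaggctttg
Mycn second match, chr12:12941986-12942015: gcgcgaaaggcTTTGGCGCctcccctgatt
Mycl TATA box, chr4:122995911-122995940: cacgcgacgagaTATAAAgcagtcgggaaa
The Max window held the site that MYC and MAX themselves bind, with its first base at -3 from the RefSeq start of the window. Of 32851 promoter windows, 7.15% held CACGTG, 0.514% held TTTGGCGC and 13.6% held TATAAA. The 2 Mycn matches began at -183 and -168, and the Mycl match at -8. All these positions count from the RefSeq start, which differs from the start of the GENCODE model given above. The Mycl match, for example, lies inside the GENCODE coordinates of Mycl. The motif TTTCCCGC, found in 1.07% of windows, was in none of the 3, and neither the Mycn nor the Mycl window held CACGTG.

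Myc and Mycl changed in opposite directions in the comparisons that involve the EuMyc group, while Max stayed within a narrow range. With the transgene Myc was 9.58 times its WT level and Mycl 0.0895 times, and with the transgene and the Max knockout together Myc was lower and Mycl higher than with the transgene alone. Max messenger RNA differed by less than 20% between the knockout groups and their controls. Mycn was at 0 to 4 reads per library. The filter on low counts kept 12878 genes, Max, Myc and Mycl among them, and Mycn did not pass it.

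**Figure D1:**
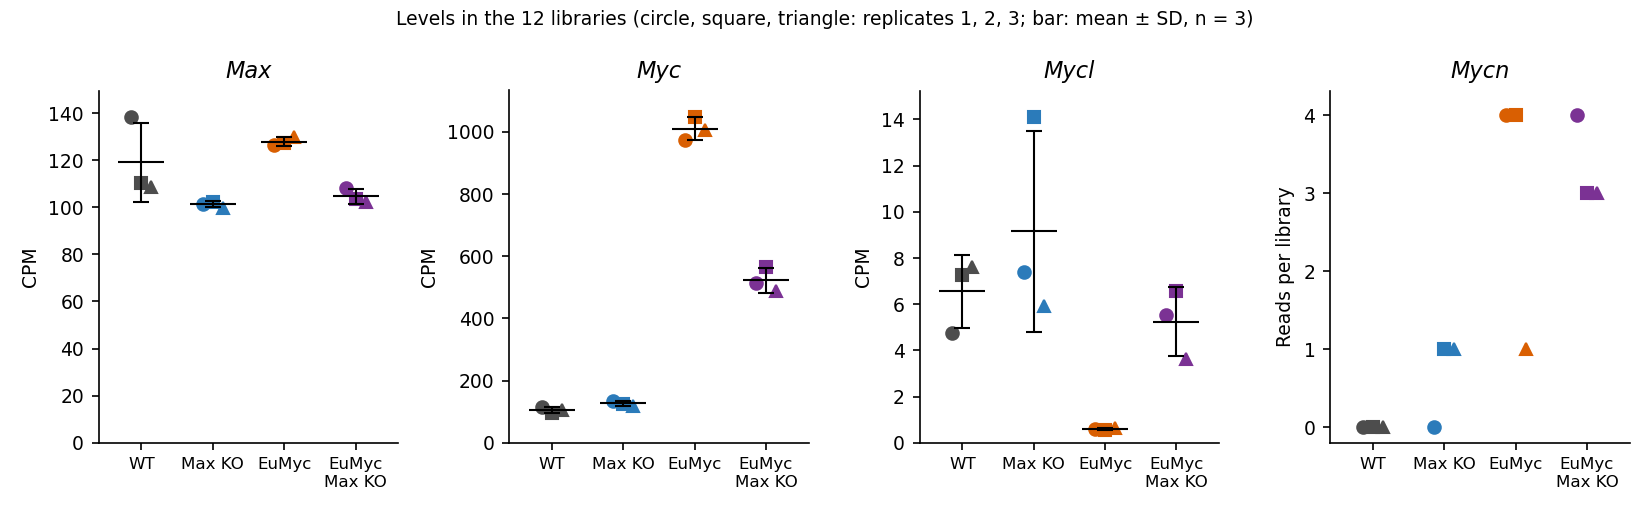
Level of Max, Myc and Mycl in CPM and reads of Mycn (vertical axes, linear) in each of the 12 libraries, by group, with bars for the mean ± SD (n = 3). Every EuMyc library had more Myc than any other library, with a mean of 1010.4 CPM, and Mycl was at 0.627 CPM or less there.

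Max, the shared dimer partner, is the gene targeted in the knockout. Max KO mice 1, 2 and 3 had 102, 102 and 99.8 CPM of Max, against 139, 110 and 108 CPM in the WT mice. EuMyc Max KO mice had 108, 104 and 102 CPM, against 126, 127 and 130 CPM in the EuMyc mice. All 6 knockout libraries lay below all 6 libraries with intact Max, by a margin of less than 1 CPM at its narrowest, between EuMyc Max KO 1 and WT 3. Of all genes tested, 4.53% were lower in every knockout library in the same way and 7.0% were higher.

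The fitted log2 fold change of Max in Max KO against WT was -0.23 (SE 0.0784, 95% interval -0.40 to -0.06), with an adjusted p = 0.0623 by the quasi-likelihood test of edgeR (Benjamini-Hochberg adjustment over all genes), so it was not called at 0.05. Of all genes, 15.0% were called there, 7.27% higher and 7.74% lower. Max passed the threshold there with RLE size factors (adjusted p = 0.0477), with DESeq2 (adjusted p = 0.0337) and without WT 3 (-0.30, adjusted p = 0.0429, edgeR). Without WT 1, the highest library, the value was -0.11 (adjusted p = 0.207). In EuMyc Max KO against EuMyc, Max fell by 0.29 on the log2 scale (SE 0.0781, interval -0.46 to -0.12, adjusted p = 0.00462), where 73.7% of all genes were called, 37.6% higher and 36.1% lower. This places the knockout libraries at 0.850 times WT and 0.818 times EuMyc. Among 12878 genes ranked by the size of the change in EuMyc Max KO against EuMyc, Max ranked 9624. The knockout's effect on Max with and without the transgene differed by -0.05 on the log2 scale (SE 0.111, interval -0.29 to 0.18, adjusted p = 0.694 for the interaction), where 55.7% of all genes were called, 27.8% higher and 27.9% lower. The sign of that difference depended on scaling and on 1 library: it was 0.03 with upper-quartile factors and 0.02 with library totals, 0.01 without WT 3, and -0.18 with an adjusted p = 0.0438 without WT 1.

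The transgene alone left Max at 128 ± 1.87 CPM (SD, n = 3) against 119 ± 16.8 in WT, a log2 fold change of 0.10 (SE 0.0780, interval -0.07 to 0.27, adjusted p = 0.252, edgeR), and the ranges overlapped. Of all genes tested, 71.6% were called in that comparison, 36.7% higher and 34.9% lower. WT 1 set the WT spread, with a coefficient of variation of 14.1% for Max against a median of 5.08% over 2099 genes of similar level. Without WT 1 the difference was 0.22 (adjusted p = 0.00189), and with upper-quartile factors it was -0.02. Between EuMyc Max KO and Max KO, Max differed by 0.05 (SE 0.0784, interval -0.12 to 0.22, adjusted p = 0.719), and 14.4% of all genes were called, 10.7% higher and 3.69% lower. EuMyc Max KO against WT gave -0.19 for Max (SE 0.0782, interval -0.36 to -0.02, adjusted p = 0.0937), where 27.8% of all genes were called, 17.0% higher and 10.8% lower. It passed the threshold with upper-quartile factors (adjusted p = 0.0371) and without WT 3 (-0.25, adjusted p = 0.0469), and without WT 1 the value was -0.07 (adjusted p = 0.381). In the other 3 groups the coefficient of variation of Max was 1.26% to 3.01%, below the median of genes of similar level in each. In order of level Max ran EuMyc, WT, EuMyc Max KO and Max KO, and the first pair and the last pair of neighbours overlapped. The pair between them, WT and EuMyc Max KO, did not overlap but missed the threshold.

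Myc, the driver encoded by the transgene, was at 115, 96.0 and 106 CPM in the WT mice and at 975, 1049 and 1007 CPM in the EuMyc mice. It was at 136, 124 and 120 CPM in the Max KO mice and at 514, 565 and 487 CPM in the EuMyc Max KO mice. No 2 groups overlapped, and the order was WT, Max KO, EuMyc Max KO and EuMyc. Over all genes the same separation of libraries held for 77.4% in EuMyc against WT and 75.9% in EuMyc Max KO against EuMyc. It held for 38.1% in Max KO against WT, 32.3% in EuMyc Max KO against Max KO and 41.8% in EuMyc Max KO against WT, so it was common throughout.

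With Max intact the transgene raised Myc by 3.26 on the log2 scale (SE 0.0872, a fold of 9.58 with a 95% interval of 8.40 to 10.9, adjusted p = 7.52e-11, edgeR). On the Max knockout background it raised Myc by 2.05 (SE 0.0832, 4.13-fold, interval 3.65 to 4.68, adjusted p = 5.68e-08). The interaction of -1.21 (SE 0.114, interval -1.46 to -0.97, adjusted p = 2.33e-06) tests the difference between them, and it was lower than 0 in every alternative run, from -1.28 to -1.13. Within the transgenic mice, Myc fell by 0.95 on the log2 scale with the Max knockout (SE 0.0802, 0.517-fold, interval 0.458 to 0.583, adjusted p = 2.5e-07). EuMyc Max KO mice still had 4.95 times the WT level of Myc (log2 fold change 2.31, SE 0.0840, adjusted p = 1.45e-08).

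Without the transgene, Myc was higher by 0.26 in Max KO than in WT (SE 0.0811, 1.20-fold, interval 1.06 to 1.35, adjusted p = 0.0483, edgeR). That call was lost when any of WT 2, WT 3, Max KO 1, Max KO 2 or Max KO 3 was left out, with values of 0.20, 0.26, 0.20, 0.28 and 0.27 and adjusted p-values of 0.0718 to 0.185. It was also lost with RLE size factors (adjusted p = 0.0601) and without the filter on low counts (adjusted p = 0.0570). The lowest Max KO library, at 120 CPM, lay above the highest WT library, at 115 CPM.

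**Figure D2:**
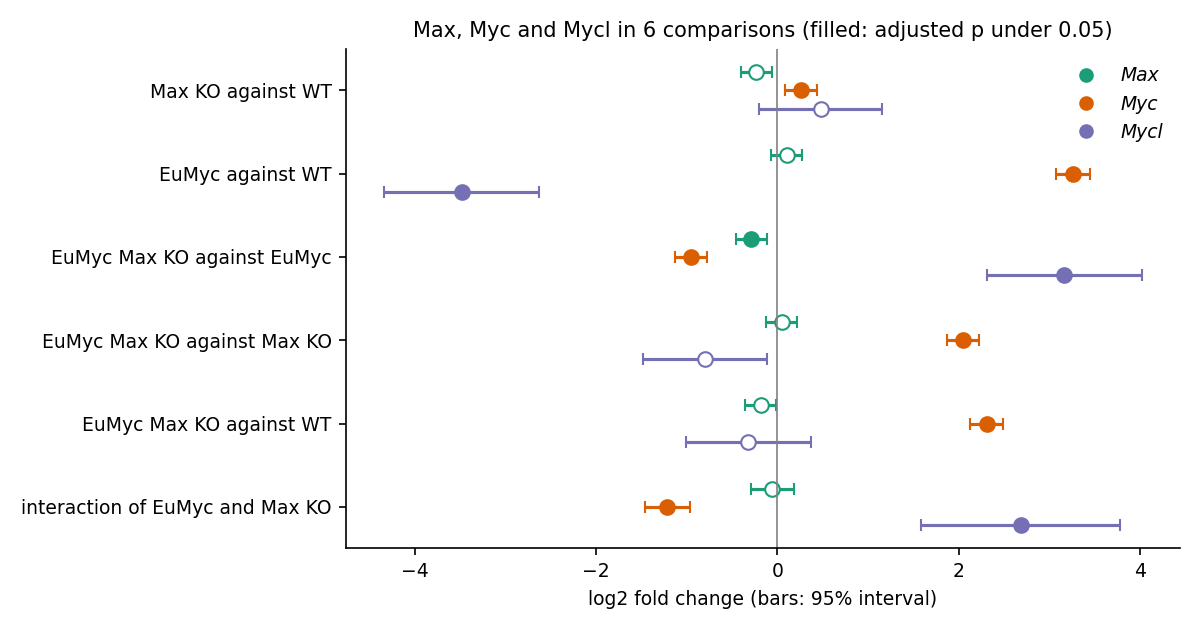
Fitted log2 fold change of Max, Myc and Mycl (horizontal axis, with 95% intervals) in the 5 comparisons of 2 groups and the interaction. The intervals of Myc lie above 0 in EuMyc against WT and below 0 in EuMyc Max KO against EuMyc, and those of Mycl lie on the opposite sides.

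Markers of other stages and cell types also differed between the groups, beside every member. The summed level of 12 pro-B and pre-B cell markers was 1123 to 1188 CPM in EuMyc, against 178 to 244 in EuMyc Max KO, 139 to 153 in Max KO and 129 to 168 in WT, and Vpreb2 was at 0 reads in WT and Max KO. Of the 11 that were tested, 10 were higher in EuMyc than in WT and 6 were lower in EuMyc Max KO than in EuMyc. Over all genes, 36.7% were higher in the first comparison, and 36.1% were lower and 37.6% higher in the second. Monocyte and macrophage markers summed to 3347 to 6074 CPM in EuMyc Max KO, against 1003 to 1212 in EuMyc, 1900 to 2393 in WT and 3133 to 4370 in Max KO, and all 10 were higher in EuMyc Max KO than in EuMyc. Erythroid markers summed to 925 to 5252 CPM in EuMyc Max KO, against 309 to 397 in EuMyc, 63.1 to 284 in WT and 141 to 420 in Max KO, with all 6 tested markers higher than in EuMyc. No defining marker of these 2 lists was at 0 in any group, and the part of these cells in the values of Max and Myc was not tested. In libraries of sorted cells, fewer cells of a type and less RNA per cell cannot be told apart.

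The ratio of Myc to Max within a library does not depend on how libraries are scaled, and levels of different genes were compared per kilobase of exon. WT libraries had 0.713 ± 0.0602 (SD, n = 3) reads per kilobase of Myc for each of Max, with a range of 0.663 to 0.780. Max KO libraries had 0.999 ± 0.0619, ranging from 0.960 to 1.07. EuMyc libraries had 6.32 ± 0.233, from 6.18 to 6.59, and EuMyc Max KO libraries 3.99 ± 0.323, from 3.80 to 4.37. In reads per kilobase of full exon length, Max was thus above Myc in WT and the pair stood near parity in Max KO. Myc exceeded Max in every transgenic library. The part of the Max transcript that remained in the knockout groups is not known here. Their ratios therefore compare whole-gene reads and not levels of intact Max transcript.

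Over the 6 pairs of groups, no ranges of this ratio overlapped. Each pair gave p = 0.1 in an exact two-sided permutation test of the log2 ratio, also after adjustment over the 6 pairs, which is the smallest p that 3 mice against 3 allow. The mean log2 ratio was higher by 0.49 in Max KO than in WT and by 3.15 in EuMyc than in WT. From EuMyc to EuMyc Max KO it dropped by 0.66, less than the 0.95 by which Myc itself fell, since Max was also lower.

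**Figure D3:**
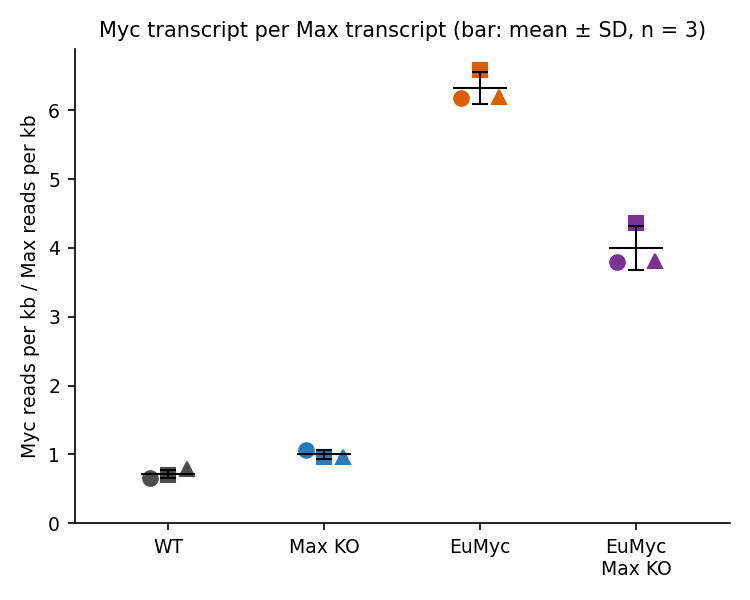
Reads per kilobase of Myc divided by reads per kilobase of Max (vertical axis, linear) in each library, by group, with bars for the mean ± SD (n = 3). The 3 WT libraries sit at 0.663 to 0.780 and the 3 EuMyc libraries at 6.18 to 6.59.

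Mycl, the paralogue known from dendritic cells, was the lowest of the 3 tested members. WT mice 1, 2 and 3 had 4.76, 7.27 and 7.62 CPM of Mycl and Max KO mice 7.40, 14.1 and 5.94 CPM. EuMyc mice had 0.580, 0.531 and 0.627 CPM, which rest on 12, 10 and 12 reads, and EuMyc Max KO mice had 5.52, 6.58 and 3.64 CPM. The EuMyc group lay apart below the other 9 libraries, which overlapped one another, and Max KO 2 was the highest of all 12.

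Mycl fell by 3.48 on the log2 scale in EuMyc against WT (SE 0.394, 95% interval -4.34 to -2.63, adjusted p = 3.75e-06, edgeR). It rose by 3.16 in EuMyc Max KO against EuMyc (SE 0.395, 8.94-fold, interval 4.94 to 16.2, adjusted p = 9.96e-06). These comparisons share the EuMyc libraries. The interaction was 2.68 (SE 0.506, interval 1.59 to 3.78, adjusted p = 0.00063). Differences among the other 3 groups did not pass the threshold: 0.48 for Max KO against WT (SE 0.313, interval -0.20 to 1.16, adjusted p = 0.329), -0.80 for EuMyc Max KO against Max KO (SE 0.315, interval -1.48 to -0.12, adjusted p = 0.110) and -0.32 for EuMyc Max KO against WT (SE 0.317, interval -1.01 to 0.37, adjusted p = 0.484). Without Max KO 2, the first 2 of these were 0.03 and -0.35. Every one of the 83 values of Mycl under the alternatives kept its direction and its side of the threshold.

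Mycl was set beside markers of plasmacytoid dendritic cells, first Siglech, whose Pearson's r with it over the libraries was the highest of all genes compared. By Spearman's rank correlation Siglech ranked 17. Because it was picked by its likeness in these data, that likeness is a description. Siglech, a lectin that defines these cells in mice, was at 3.87, 5.00 and 4.70 CPM in the EuMyc mice and at 55.2, 50.6 and 33.8 CPM in the EuMyc Max KO mice. Without the transgene it was at 53.8, 95.6 and 90.8 CPM in the WT mice and at 92.1, 161 and 88.1 CPM in the Max KO mice. Max KO 2 was the highest library for both genes and the EuMyc libraries were the lowest for both. Mycl CPM stood at 6.75% to 8.84% of Siglech CPM in the libraries without the transgene. In the transgenic libraries the share was higher throughout, at 10% to 15%, with the highest in EuMyc 1 on 12 reads of Mycl. In EuMyc Max KO, on 70 to 120 reads of Mycl, it was 10% to 13%. Siglech was at -1.29 in EuMyc Max KO against Max KO (adjusted p = 0.0188, edgeR), where Mycl was at -0.80 and not called. The cause of the higher share was not tested. While Mycl spanned 26.6-fold and Siglech 41.6-fold between their highest and lowest libraries, their ratio spanned 2.22-fold. As a description, Pearson's r of log2 CPM between them was 0.991 over 12 libraries and 0.913 over the 9 outside the EuMyc group. For the other 8 markers on the list, r over the 9 libraries outside the EuMyc group was 0.438 for Klk1, 0.665 for Tcf4, 0.681 for Ccr9 and 0.733 for Pacsin1, and 0.842 to 0.945 for Cox6a2, Irf8, Runx2 and Bst2. Over all 12 libraries it was 0.933 to 0.982, except for Cox6a2, where it was -0.27.

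Of the 9 plasmacytoid dendritic cell markers, 8 were lower and 1, Cox6a2, was higher in EuMyc than in WT. Their median log2 fold change was -2.29, against 0.01 over all genes tested, of which 34.9% were lower and 36.7% higher. Comparing EuMyc Max KO with EuMyc, 8 of these markers were higher and Cox6a2 was lower. Their median was 2.47, against 0.03 over all genes, of which 37.6% were higher and 36.1% lower. The summed level of the 9 markers was 336 to 382 CPM in EuMyc, against 845 to 924 CPM in EuMyc Max KO. It reached 995 to 1321 CPM in Max KO and 899.7 to 1001 CPM in WT, and no marker was at 0 in any group. Irf8 and Tcf4, which B cells also express, made up most of that sum in every group. Irf8 averaged 560, 622, 212 and 541 CPM in WT, Max KO, EuMyc and EuMyc Max KO. Tcf4 averaged 171, 203, 93.3 and 176 CPM in the same order. Of 12 markers of dendritic cells in general, 10 were lower in EuMyc than in WT and 11 higher in EuMyc Max KO than in EuMyc, with sums of 765 to 812 CPM in EuMyc, 1227 to 1289 in WT, 1178 to 1204 in EuMyc Max KO and 1329 to 1378 in Max KO. Most of each sum was Wdfy4, which averaged 756 CPM in EuMyc and 1125 in WT. It averaged 996 CPM in EuMyc Max KO and 1151 in Max KO. T cell markers were lower in EuMyc than in WT in 8 of 8 tested genes (sums of 28.2 to 30.2 against 105 to 130 CPM), and NK cell markers in 6 of 7 (3.19 to 7.37 against 18.7 to 31.7 CPM). In EuMyc Max KO against EuMyc, all 8 T cell markers and all 7 NK cell markers were higher, with medians of 3.15 and 3.44. Their sums in EuMyc Max KO were 154 to 164 CPM and 36.5 to 50.2 CPM. The part of these cells in the level of Mycl was not tested.

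**Figure D4:**
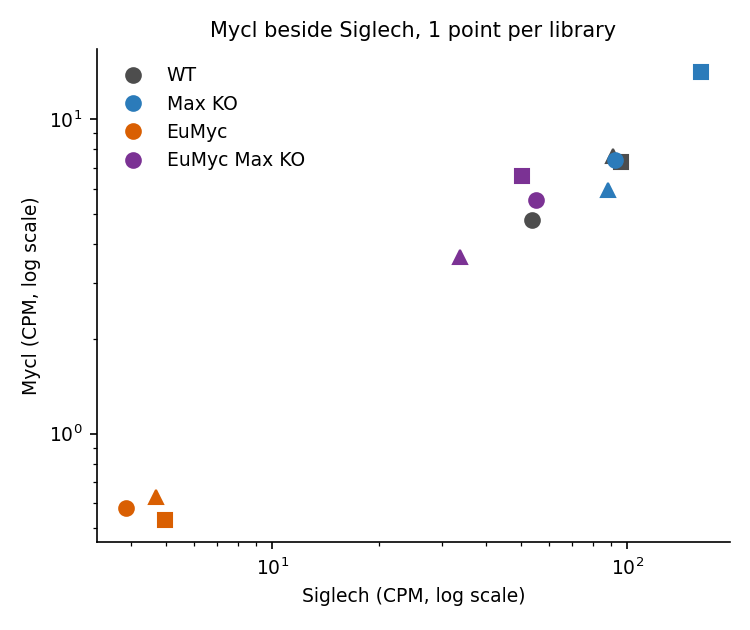
Mycl CPM (vertical axis, log scale) against Siglech CPM (horizontal axis, log scale) in each of the 12 libraries, coloured by group. The 3 EuMyc libraries lie apart at the lower left, and Max KO 2, with 14.1 CPM of Mycl, lies at the upper right.

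Mycn, the paralogue of early progenitors, was close to silent. It had 0 reads in all 3 WT libraries and 0, 1 and 1 reads in the Max KO libraries. The EuMyc libraries had 4, 4 and 1 reads and the EuMyc Max KO libraries 4, 3 and 3. Every transgenic library held at least 1 read and no WT library held any, while Max KO overlapped both WT and EuMyc. The pooled level was 0.153 CPM in EuMyc, with a 95% counting interval of 0.0702 to 0.291, and 0.179 CPM in EuMyc Max KO, with an interval of 0.0857 to 0.329. In WT the interval ran from 0 to 0.0712 CPM, so it met that of EuMyc, and no fold is given against WT. The ratio of EuMyc Max KO to Max KO was 4.54, with a counting interval of 0.968 to 42.6, and that of EuMyc Max KO to EuMyc 1.16, with an interval of 0.425 to 3.24. Such intervals cover counting error only. In a fit with no filter on low counts, the adjusted p for Mycn was 0.0178 in EuMyc against WT and 0.0349 in EuMyc Max KO against WT (edgeR), on at most 4 reads per library.

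Per kilobase of exon, on the CPM scale, Myc made up nearly all of the 3 paralogues in every group. Its share of their summed level was 99.94% to 99.95% in EuMyc, 99.2% to 99.5% in EuMyc Max KO, 95.2% to 97.3% in WT and 92.9% to 96.7% in Max KO. Mycl held 0.0339% to 0.0417% in EuMyc, 0.497% to 0.773% in EuMyc Max KO, but 2.70% to 4.82% in WT and 3.21% to 7.10% in Max KO. In these units WT libraries averaged 60.8 ± 8.60 (SD, n = 3) for Max, 43.1 ± 3.83 for Myc and 1.79 ± 0.428 for Mycl. In EuMyc the same means were 65.3 ± 0.953, 413 ± 15.2 and 0.159 ± 0.0130, so the gap between Myc and Mycl widened in both directions.

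The other dimer partners of MAX give the setting in which the pair was measured, and all 6 passed the filter. In Max KO against WT, 3 of 6 were higher and none lower (median 0.21, against -0.003 over all genes): Mga, a repressor of the noncanonical Polycomb type, by 0.80, Mnt, a broadly expressed repressor, by 0.73 and Mxd4 by 0.31, the last not called without Max KO 1 (adjusted p = 0.0535, edgeR). Of all genes tested, 7.27% were higher there and 7.74% lower. In EuMyc against WT, 3 of the 6 partners were higher and none lower (median 0.57): Mxd3, which is expressed in cycling cells, by 3.22, Mxi1 by 1.66 and Mxd4 by 0.82. The shares of all genes in that comparison were 36.7% higher and 34.9% lower. With upper-quartile factors or library totals, 2 of the 6 were called lower there as well. Between EuMyc Max KO and EuMyc, Mxd1, Mga and Mnt were higher by 1.51, 0.76 and 0.62, and Mxd4 fell by 0.45. There 37.6% of all genes were higher and 36.1% lower. Mlx and Mlxip, which encode the parallel MLX and MondoA dimer, were called once between them, with Mlx lower by 0.22 in EuMyc against WT.

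All 36 listed genes that MYC is known to induce were higher in EuMyc than in WT (median log2 fold change 1.47, against 0.01 over all genes), for example Cdk4, a G1 kinase, by 1.85 and Ung, a uracil glycosylase, by 2.35. Of all genes tested, 36.7% were higher and 34.9% lower in that comparison. With the knockout added, in EuMyc Max KO against EuMyc, 32 of the 36 targets were lower and none higher (median -1.37), while the Myc transcript stayed at 4.95 times WT. The shares of all genes in EuMyc Max KO against EuMyc were 36.1% lower and 37.6% higher. Pa2g4, a growth regulator, fell by 1.85 there and Cdk4 by 1.75. Odc1, the rate-limiting enzyme of polyamine synthesis, and Tfrc, the transferrin receptor, were among the 4 that were not called, at -0.06 and -0.10. They averaged 403 ± 102 and 384 ± 176 CPM (SD, n = 3) in EuMyc Max KO, a wide spread between mice. In EuMyc they averaged 419 ± 35.2 and 411 ± 23.2 CPM. The cause of that spread was not tested. Against WT, EuMyc Max KO had 9 of 36 higher and 4 lower (median 0.01), beside 17.0% higher and 10.8% lower over all genes. On the median these 36 genes thus lay at the WT level at nearly 5 times its Myc. In EuMyc Max KO against Max KO, 17 were higher and none lower (median 0.23), beside 10.7% higher and 3.69% lower over all genes. That count of 17 ranged from 9 to 11 without any 1 of Max KO 1, 2 or 3 or EuMyc Max KO 2. In Max KO against WT, 18 were lower and 4 higher (median -0.23), beside 7.74% lower and 7.27% higher over all genes. Pa2g4 was lower by 0.52 there and Rrp12, a ribosome assembly factor, higher by 0.68. The lists were drawn up with results of these data known, so their directions are a description.

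**Figure D5:**
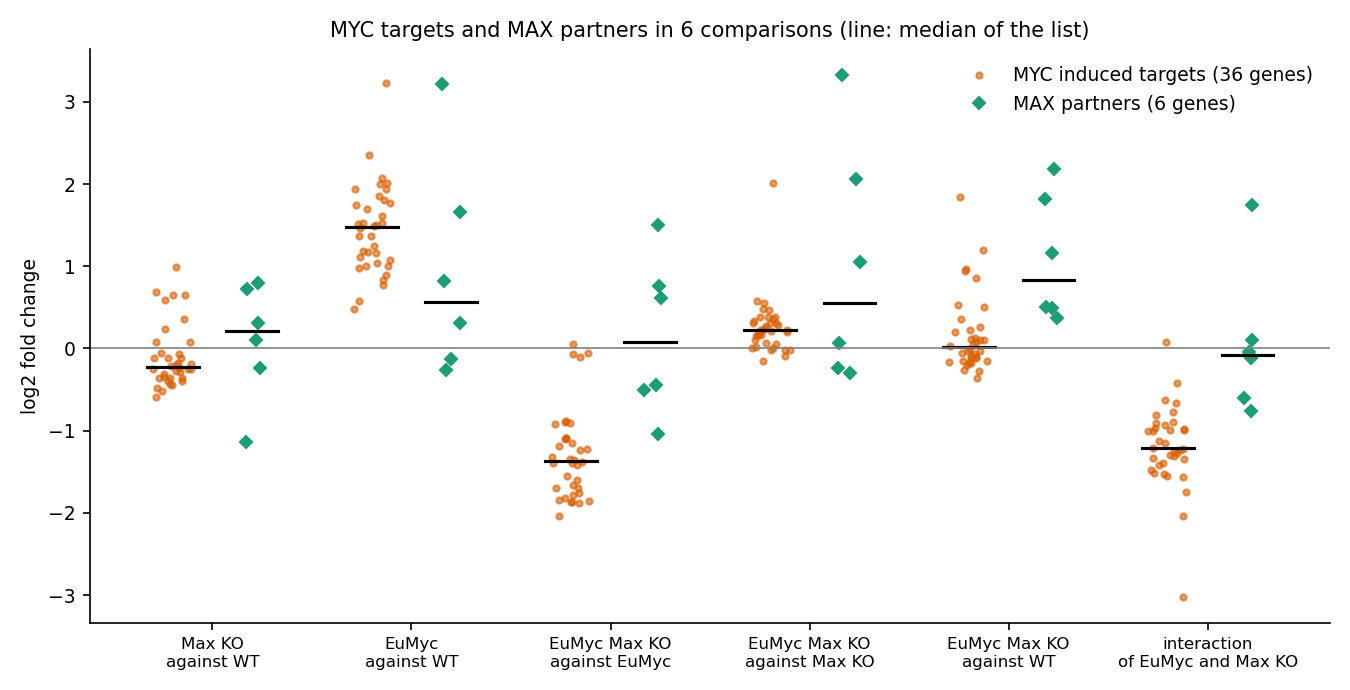
Fitted log2 fold change (vertical axis) of each MYC induced target and each MAX partner in the 6 comparisons, with a line at the median of each list. The targets lie above 0 in EuMyc against WT and mostly below 0 in EuMyc Max KO against EuMyc, with medians of 1.47 and -1.37.

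Of 20 tested cofactors of MYC, 10 were higher and 2 lower in EuMyc than in WT, and 14 were lower and 1 higher in EuMyc Max KO than in EuMyc (medians 0.19 and -0.39). Over all genes, 36.7% were higher and 34.9% lower in the first comparison, and 36.1% lower and 37.6% higher in the second, so the higher cofactors in EuMyc were not far above the share of all genes. Ruvbl2 and Ruvbl1, the ATPases that MYC recruits, were higher by 1.62 and 1.33 in the first and fell by 1.78 and 1.47 in the second. Of 16 tested genes for turnover of MYC protein, 10 were higher and 2 lower in EuMyc against WT (median 0.25, beside the same 36.7% and 34.9% over all genes), among the former Skp2, an F-box ubiquitin ligase subunit, by 2.53. Fbxw7, the F-box protein that marks phosphorylated MYC for degradation, was lower by 0.29 there and higher by 0.23 in EuMyc Max KO against EuMyc. Of 9 tested genes that MYC is known to repress, 4 were lower and 3 higher in EuMyc against WT (median -0.28), close to the 34.9% lower and 36.7% higher over all genes. Ndrg1, a stress-induced gene, fell by 1.94 and Btg1, an antiproliferative gene, by 1.89, but Cdkn1c and Cdkn1a, inhibitors of cyclin-dependent kinases, were higher by 3.55 and 2.49. Both inhibitors started from low levels, with means of 0.327 and 1.04 CPM in WT against 3.91 and 5.89 CPM in EuMyc.

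Genes beside the members were read for movement with them. Pvt1, a noncoding RNA gene 47.6 kb from Myc, averaged 9.50 ± 0.738 CPM (SD, n = 3) in EuMyc, 6.27 ± 0.825 in WT, 5.68 ± 0.423 in EuMyc Max KO and 4.69 ± 0.647 in Max KO. It was higher by 0.60 in EuMyc against WT (adjusted p = 0.00433, edgeR) and fell by 0.74 in EuMyc Max KO against EuMyc (adjusted p = 0.000955), so it was back near WT where Myc was not. Fam84b, 1132 kb from Myc on the other side, was lower by 1.38 and then higher by 0.89 in the same comparisons, opposite to Myc. Fntb, a farnesyltransferase subunit gene 15.9 kb from Max, was higher by 1.0 in EuMyc against WT and lower by 0.33 in EuMyc Max KO against EuMyc, and in Max KO against WT it was at 0.34 (adjusted p = 0.0769), on the other side of 0 from Max. Trit1, 14.1 kb from Mycl and a tRNA-modifying enzyme gene, was lower by 0.18 in EuMyc against WT, against the 3.48 by which Mycl fell. Mfsd2a, a lipid transporter gene 34.5 kb from Mycl, was higher by 1.52 in EuMyc against WT and fell by 1.53 in EuMyc Max KO against EuMyc, opposite to Mycl in both. Cap1 and Ppt1, further out on the same side, changed in the direction of Mycl, lower by 0.53 and 0.39 and then higher by 0.46 and 0.65. Around Mycn, Ddx1, an RNA helicase gene 275 kb away, was higher by 1.22 and then lower by 1.11 in the same comparisons, while Fam49a and Nbas were lower by 1.44 and 0.34 and then higher by 1.87 and 0.42.

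Over the 12 libraries, 9782 genes with a mean of at least 5 CPM were ranked by Pearson's r of log2 CPM with each member, as a description, since all points share the 4 groups and their cell makeup. Max was followed most closely by Daxx (0.946), Rbm42 (0.931), B9d2 (0.930), Tspan5 (0.928) and Rxrb (0.922), and 18 genes were over 0.9. Myc was followed by Uhrf2 (0.986), Klhdc2 (0.985), Ak3 (0.982), Ccne1 (0.981) and Rcl1 (0.981), and 347 genes were over 0.9. Mycl was followed by Siglech (0.991), Srgap3 (0.990), Fyn (0.989), Alox5ap (0.984) and Cd7 (0.982), and 1499 genes were over 0.9. Without the EuMyc group these values were 0.878 to 0.913 for Max, 0.957 to 0.977 for Myc and 0.859 to 0.913 for Mycl. Max had the fewest close followers and the narrowest range of the 3, and Mycl the most.

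Depth differed between the groups: 20221681 to 21671601 reads per library were assigned to genes in EuMyc, 17890935 to 18668193 in EuMyc Max KO and 14973332 to 17647732 in the libraries without the transgene, with no overlap between these ranges. The part of depth in the results was not tested beyond the scaling of libraries. Within a group, every pair of libraries differed beyond sampling noise (chi-square divided by its degrees of freedom, 7.81 to 69.6 over genes), most of all EuMyc Max KO 1 and 3. At these totals Max rested on 1601 to 2613 reads per library and Myc on 1690 to 20171, while Mycl rested on 10 to 221.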

How the data were processed

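RNA of B220+ splenocytes from 12 separate mice was sequenced, 3 mice in each of 4 genotype groups taken from the labels. Per the submitters' processing notes, bcl2fastq 1.8.4, TopHat2 2.1.0, HTSeq 0.6.1 and mm10 were used; the sources used here give neither the annotation nor the strand setting. The deposited tables hold raw read counts for each gene, as whole numbers that the authors left unnormalized. The 5 summary rows per table stayed out of totals and tests, among them reads outside genes (12.5% to 20.3%), ambiguous reads (0.748% to 1.45%) and reads with several alignments (20.3% to 27.9%). Counts were filtered with filterByExpr, scaled by TMM and fitted in 1 model over all libraries with edgeR 4.0.16 (glmQLFit, robust; glmQLFTest; limma 3.58.1; R 4.3.3), with Benjamini-Hochberg adjustment over 12878 genes and calls at 0.05. The model had 8 residual degrees of freedom and a common biological coefficient of variation of 13.7%. Log2 CPM for likeness used a prior count of 2. Levels per kilobase used summed exons of GENCODE vM21, which held 95.7% of symbols. Gm47218, an annotated gene within Max, is not among the counted genes. A further B cell marker is not reported here. The members and gene lists were chosen with earlier results of these data known. Named genes are the members, each MAX partner, the 5 genes most like each member and up to 3 neighbours on each side. From each list, up to 3 called genes per direction and comparison were named by smallest p. Odc1, Tfrc, Fbxw7, Cox6a2, Irf8, Tcf4 and Wdfy4 were named after their values were seen. The steps were tested on simulated counts. Alternatives were other scalings, no filter, DESeq2 1.42.0, fits of only the groups compared, a replicate block and leaving out each library.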

Additional observations from a re-analysis of the deposited data

Results flagged for a closer look

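The effect of the Max knockout on Myc differed between mice with and without the transgene. The interaction was -1.21 on the log2 scale in edgeR's quasi-likelihood test (adjusted p = 2.33e-06): Myc fell by 0.95 with the knockout in transgenic mice and was higher by 0.26 in mice without the transgene. The effect on Mycl differed as well, with an interaction of 2.68 (adjusted p = 0.00063), from a rise of 3.16 in transgenic mice and a value of 0.48 that did not pass the threshold in the others.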

How the results depend on the processing

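Of 249 values of the 18 results on Max, Myc and Mycl under the alternatives, 230 kept their direction and their side of the threshold. For Max in Max KO against WT, the log2 fold change was -0.25 with RLE size factors (adjusted p = 0.0477) and -0.25 with DESeq2 (adjusted p = 0.0337), and -0.30 to -0.11 when 1 library was left out. For Myc in Max KO against WT it was 0.24 with RLE size factors (adjusted p = 0.0601), 0.26 without the filter on low counts (adjusted p = 0.0570) and 0.26 with the replicate block (adjusted p = 0.0611), and 0.20 to 0.32 when 1 library was left out. With upper-quartile factors, Max was at -0.024 in EuMyc against WT (adjusted p = 0.788), at -0.23 in EuMyc Max KO against WT (adjusted p = 0.0371) and at 0.033 in the interaction, which was 0.023 with library totals. Without 1 library, Max ranged from 0.038 to 0.22 in EuMyc against WT, from -0.25 to -0.065 in EuMyc Max KO against WT and from -0.18 to 0.01 in the interaction, the last value, 0.0090, being without WT 3. The tests are edgeR's quasi-likelihood test unless DESeq2 is named, and the cause of these differences was not tested.

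Over all genes, 1933 were called in Max KO against WT and 808 to 1565 when 1 library was left out. In EuMyc Max KO against Max KO 1853 were called, 851 when only those groups were fitted and 1057 to 2846 when 1 library was left out. In EuMyc Max KO against WT 3581 were called, and 2379 to 4236 when 1 library was left out. Upper-quartile factors moved the median of all genes by -0.13 in EuMyc against WT, and library totals by -0.10 there and by 0.12 in EuMyc Max KO against EuMyc. The shared replicate numbers were not treated as pairing the samples, since the labels tie them to no litter or batch and not every same-numbered pair correlated over 0.1: same-numbered libraries correlated at -0.12 to 0.34 in their deviations from the group means, and 8 of 12 correlated best with their own number, a hint from the data. Between WT and Max KO these correlations were 0.18, 0.34 and 0.095, against -0.26 to 0.091 for pairs with unlike numbers. Every WT and Max KO library correlated best with a library of its own number. For Max KO 3 that library was EuMyc Max KO 3, at 0.143, and not WT 3, at 0.095. EuMyc 3 and EuMyc Max KO 3 correlated best with each other, at 0.166, so the hint is not confined to WT and Max KO. Mycn did not pass the filter and has no value under the alternatives that keep it. At 10 to 12 reads per EuMyc library, small differences in Mycl were not detectable, and Mycn was at 4 reads or fewer everywhere.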
